A study of Mus musculus with 12 samples.

Results

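The genes described here are the adult alpha-globin genes Hba-a1 and Hba-a2, the adult beta-globin genes Hbb-bs and Hbb-bt, Alas2 and Slc4a1, measured by RNA-Seq in the cortex of each mouse. They were taken by symbol, and all 6 were found among the 50563 genes of the count table. There were 7 CTRL mice, which received vehicle, and 5 DPAn-6 mice, which received 700 mg/kg of DPAn-6, the omega-6 docosapentaenoic acid, by daily oral gavage for 3 weeks, with 1 library per mouse. All 12 were aged E4FAD mice, labelled APOE4+/+ and 5FAD-/+: they carry human APOE4 in place of the mouse gene and the familial Alzheimer's disease transgenes, which in the 5xFAD line are driven by a neuronal promoter. Both groups received the vehicle, which held alpha-tocopherol and palmitoyl ascorbic acid as antioxidants. The CTRL group had 2 mice of 12 months and 5 of 14 months, and the DPAn-6 group 2 mice of 12 months and 3 of 14 months. The mice had been perfused with buffer before the brain was taken, a step that washes blood from the vessels.

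Adult haemoglobin is built from alpha and beta chains, each holding a haem group. Alas2 is the erythroid form of the first enzyme of haem synthesis, and Slc4a1 is band 3, the anion exchanger of the red cell membrane. Mature red cells have no nucleus, while reticulocytes, the young red cells of blood, still hold globin and Alas2 mRNA. Neurons and glia are also known to make globin mRNA at low levels, so globin reads in brain can come from residual blood, from brain cells or from both. In a bulk library, fewer cells of a type and less RNA per cell cannot be told apart.

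The near-identical copies within each globin family decide which reads could be counted, so their sequences are shown first. Over the 426 bases of the coding sequence, Hba-a1 and Hba-a2 differed at 1 base, and over 441 bases Hbb-bs and Hbb-bt differed at 1 base. The stretches below, read 5′ to 3′ on the coding strand of GRCm38, carry that base in capitals. They lie at chr11:32284298-32284387 (+ strand) for Hba-a1, chr11:32297115-32297204 (+ strand) for Hba-a2, chr7:103826668-103826757 (- strand) for Hbb-bs and chr7:103812659-103812748 (- strand) for Hbb-bt.
Hba-a1: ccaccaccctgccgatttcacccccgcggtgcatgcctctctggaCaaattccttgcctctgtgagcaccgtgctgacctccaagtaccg
Hba-a2: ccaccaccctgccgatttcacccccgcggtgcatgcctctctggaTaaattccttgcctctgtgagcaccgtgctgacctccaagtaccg
Hbb-bs: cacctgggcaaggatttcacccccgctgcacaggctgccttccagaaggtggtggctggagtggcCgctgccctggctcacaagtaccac
Hbb-bt: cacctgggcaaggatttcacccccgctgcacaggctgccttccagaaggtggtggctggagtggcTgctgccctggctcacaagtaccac

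The longest run shared without a difference was 380 coding bases in the alpha genes and 416 in the beta genes. STAR's gene counting keeps only reads with a single place in the genome. Of all 75-base windows along the transcript, 62.2% in Hba-a1, 81.0% in Hba-a2, 64.3% in Hbb-bs and 56.6% in Hbb-bt also occurred in the other copy. The read length is not given in the sources used here. With windows of 100 bases the shares were 56.5%, 74.5%, 62.6% and 54.8%. The counts of the globin genes therefore come mostly from the parts that differ, and the split between copies is uncertain. For Alas2, 12.1% of 75-base windows also lay in Apex2, a gene that overlaps it on the opposite strand, and without a stated strand setting reads there cannot be told apart. Slc4a1 shared none of its windows.

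Hba-a1 (ENSMUSG00000069919) lies at chromosome 11, 32283511 to 32284465, and Hba-a2 (ENSMUSG00000069917) at chromosome 11, 32296489 to 32297298, both on the plus strand. Hbb-bs (ENSMUSG00000052305) lies at chromosome 7, 103826534 to 103828096, and Hbb-bt (ENSMUSG00000073940) at chromosome 7, 103812524 to 103813996, both on the minus strand. Alas2 (ENSMUSG00000025270) is on the plus strand of chromosome X, 150547375 to 150570638, and Slc4a1 (ENSMUSG00000006574) on the minus strand of chromosome 11, 102348824 to 102366203.

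GATA factors and KLF1 are the best known activators of these genes in red cell precursors, and RefSeq promoter sequences (GRCm38.p6) were available for 5 of the 6 genes, all but Slc4a1. The letters GATAA, a core of GATA factor sites, occurred on either strand in the 250 bases before the start of all 5, against 22.6% of 32817 promoters. The windows of 30 bases below show the match in capitals, on the strand of the gene, at chr11:32283478-32283507 (+ strand), chr11:32296295-32296324 (+ strand), chr7:103828120-103828149 (- strand), chr7:103814110-103814139 (- strand) and chrX:150547319-150547348 (+ strand), where the Alas2 match is on the reverse strand.
Hba-a1: gtccgggcaactGATAAggattccctgcac
Hba-a2: gtccgggcaactGATAAggattccctgcac
Hbb-bs: gttctctgcacaGATAAggacaaacattat
Hbb-bt: attagctgcaagGATAAgaacagacactac
Alas2: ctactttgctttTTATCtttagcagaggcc

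The letters CACCC, part of the sites that KLF1 binds, were in all 5 promoters and in 52.0% of all promoters. The longer CACACCC, which contains CACCC, was in that of Hbb-bs alone among the 5 and in 6.93% of all. CCAAT was in the 4 globin promoters and in 33.8% of all. These matches describe the sequence only.

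Total counts on genes ranged from 15339098 to 19500154 in CTRL and from 15208803 to 26520251 in DPAn-6 mice, so that 3 counts stood for 0.113 to 0.197 CPM, the count scaled to a common library total. Some libraries stood apart in ways that bear on red cell genes. CTRL replicate 2 and DPAn-6 replicate 2 had the highest summed haemoglobin level of their groups. The 13 choroid plexus markers, led by Ttr, summed to 2608 CPM in CTRL replicate 2, 1756 in CTRL replicate 5 and 641 in CTRL replicate 3, against 275 to 346 CPM in the other mice. CTRL replicate 3 also had 18334 CPM summed over 12 neuronal markers, against 13844 to 14962 in the other mice. In the comparison of the groups given below, 953 genes were called without this mouse, against 243 with all mice. Values are given with all mice, and without libraries where that changes them. Equal replicate numbers in the 2 groups name the mice and do not pair them.

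Haemoglobin mRNA was present in every mouse at a low level. The 4 globin genes together took 102 to 523 counts per mouse. In CTRL mice the sum was lowest at 7.39 CPM, had a median of 12.8 and was highest at 21.01 CPM in replicate 2. The 5 DPAn-6 mice had 7.88, 29.3, 5.13, 6.97 and 6.82 CPM in the order of their replicate numbers. In 4 of the 5 DPAn-6 mice the sum was under 8 CPM, which was also so in CTRL replicates 3 and 4, and the remaining mouse, replicate 2, was the highest of all 12. The range of the DPAn-6 mice thus held that of the CTRL mice, and the highest mouse was 5.72 times the lowest. The CTRL mean was 12.5 ± 4.70 CPM (SD, n = 7), and that of the DPAn-6 mice was 11.2 ± 10.2 CPM (SD, n = 5).

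**Figure D1:**
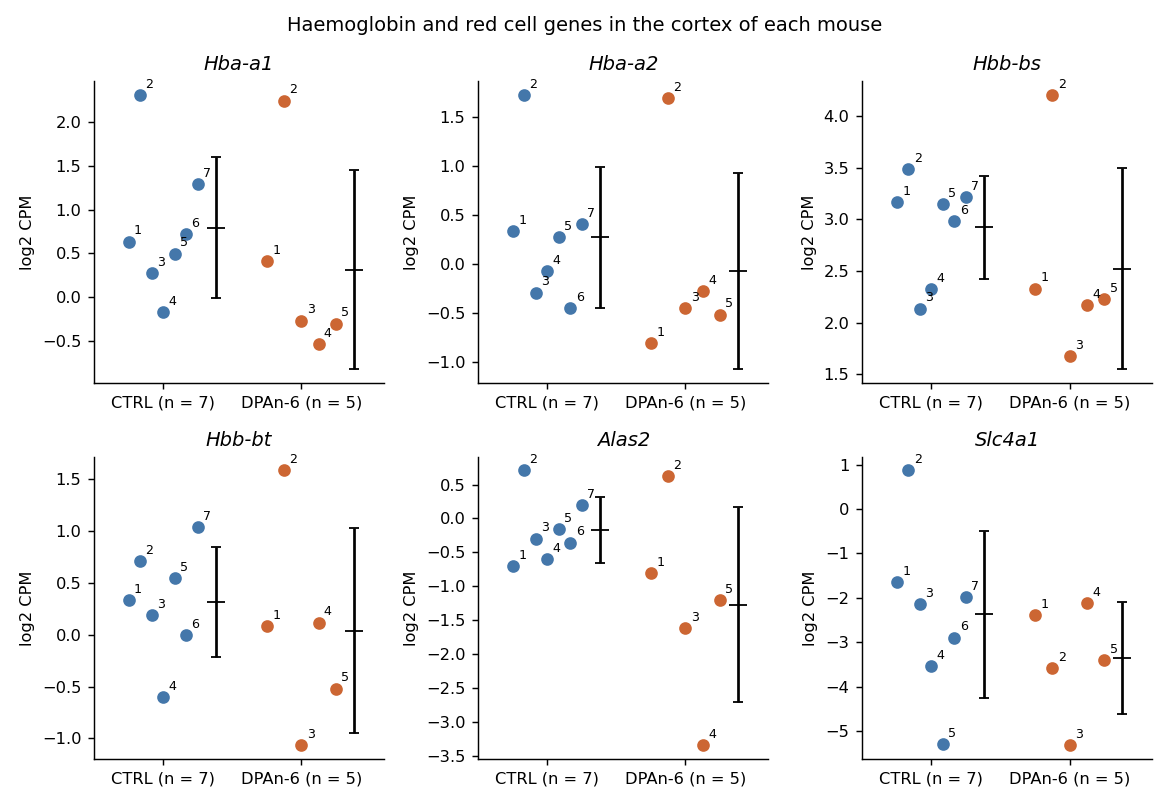
Level of each gene in log2 CPM (vertical axis; 0.5 added to each count) in CTRL (blue, n = 7) and DPAn-6 mice (orange, n = 5), with replicate numbers beside the points and the mean ± SD in black. DPAn-6 replicate 2 stands above the other DPAn-6 mice for the 4 globin genes and Alas2 but not for Slc4a1, where CTRL replicate 2 alone is high.

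Among the alpha chains, Hba-a1 had between 0.860 and 4.93 CPM in CTRL mice with a median of 1.52. In DPAn-6 mice it had 1.30, 4.71, 0.805, 0.658 and 0.792 CPM. A single mouse in each group, replicate 2, stood far above the rest, and the other 10 mice had 0.658 to 2.41 CPM. Hba-a2 ranged from 0.701 to 3.27 CPM in CTRL, with a median of 1.18. The DPAn-6 mice had 0.543, 3.20, 0.704, 0.789 and 0.679 CPM. Again both mice numbered 2 were highest, and the remaining values of the 2 groups overlapped. The smallest count behind these values was 10 reads for each gene, for which the exact 95% Poisson interval is 4.795 to 18.4 reads, an interval that covers counting error only.

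Hbb-bs was the most highly counted of the 6 genes, with 63 to 329 reads per mouse. It had 4.37 to 11.2 CPM in CTRL with a median of 8.82. The values in DPAn-6 mice were 5.00, 18.4, 3.17, 4.47 and 4.68 CPM. Of the CTRL mice, replicates 3 and 4 lay among the DPAn-6 mice and the other 5 lay above every DPAn-6 mouse but replicate 2. Hbb-bt had 0.630 to 2.02 CPM in CTRL with a median of 1.23, and 1.03, 2.97, 0.453, 1.05 and 0.679 CPM in DPAn-6 mice. For this gene CTRL replicate 2 was not the highest CTRL mouse, and it ranked the third of all 12.

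Alas2 had 0.585 to 1.601 CPM in CTRL mice, with a median of 0.782. In DPAn-6 mice it had 0.543, 1.51, 0.302, 0.0658 and 0.415 CPM. All DPAn-6 mice except replicate 2 lay below the lowest CTRL mouse, which had 0.585 CPM. The counts behind them were small: DPAn-6 replicate 4 had 1 read, with an exact 95% Poisson interval of 0.0253 to 5.57 reads.

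Slc4a1 was at or near the floor of 3 counts in 11 mice and well above it in 1. CTRL replicate 2 had 28 reads, or 1.79 CPM, with an exact 95% Poisson interval of 18.6 to 40.5 reads. The other 6 CTRL mice had 0 to 5 reads and the 5 DPAn-6 mice 3, 1, 0, 3 and 2 reads. DPAn-6 replicate 2, which had the most haemoglobin mRNA, thus had 1 read of Slc4a1 (interval 0.0253 to 5.57). Set against the globins, Slc4a1 had 8.54 reads per 100 haemoglobin reads in CTRL replicate 2 and 0.191 in DPAn-6 replicate 2, with 0 to 2.83 in the other 10 mice.

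Per length the order of the genes was led by Hbb-bs. On the scale of mean CPM per kilobase of exon, Hbb-bs had 9.90, Hba-a1 2.28, Hba-a2 1.91, Hbb-bt 1.80, Alas2 0.319 and Slc4a1 0.0539. Counted per kilobase of 75-base windows not shared with another gene, the levels were 38.4 for Hbb-bs, 14.0 for Hba-a2, 7.83 for Hba-a1, 4.63 for Hbb-bt, 0.444 for Alas2 and 0.0590 for Slc4a1. Hbb-bs was first on both scales, while the order of Hba-a1 and Hba-a2 turned with the length used.

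The alpha chains took 20.0% to 39.0% of haemoglobin reads, with a median over the 12 mice of 23.7%. CTRL replicate 2 had the largest share, 39.0% (95% exact Clopper-Pearson interval 33.7% to 44.5%), and DPAn-6 replicate 2 had 27.0% (23.2% to 31.0%). These intervals do not overlap, though that of CTRL replicate 2 overlaps the intervals of CTRL replicate 3 and DPAn-6 replicate 3. Hbb-bs alone took 53.4% of the haemoglobin reads in CTRL replicate 2 and 58.8% to 70.5% in the other 11 mice. These 2 mice thus differed in the mix of chains counted, although unequal counting of the copies enters these shares.

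**Figure D2:**
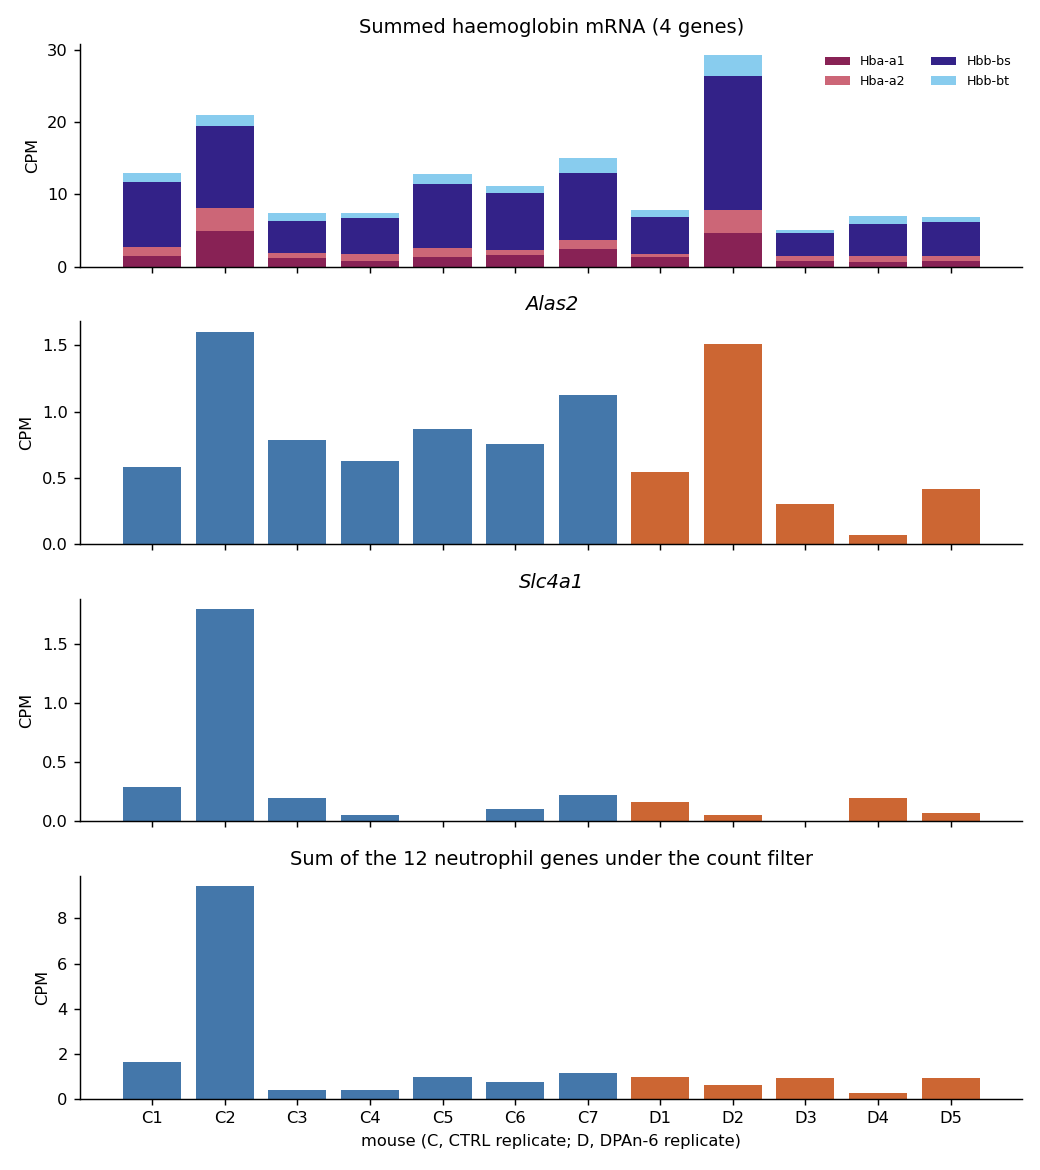
Levels in CPM (vertical axes) in each mouse (C1 to C7, CTRL; D1 to D5, DPAn-6) of the 4 haemoglobin genes stacked, of Alas2, of Slc4a1, and of the sum of 12 neutrophil genes that did not pass the count filter. C2 and D2 are highest for haemoglobin and Alas2, and C2 alone is high for Slc4a1 and the neutrophil genes.

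Some genes of red cell precursors and of neutrophils were also counted in CTRL replicate 2 and scarcely in DPAn-6 replicate 2, and they were singled out after their counts were seen. Of the 15 listed erythroid genes that did not pass the count filter, the summed count was 48 in CTRL replicate 2, 14 in DPAn-6 replicate 2 and 14 to 27 in the others. Epb42, which encodes the membrane protein 4.2 that binds band 3, had 5 reads in CTRL replicate 2, 0 in DPAn-6 replicate 2 and 0 or 1 elsewhere. Klf1, the erythroid transcription factor, had 6 reads in CTRL replicate 2, 1 in DPAn-6 replicate 2 and 0 to 4 in the other mice. Granule protein genes of maturing neutrophils showed a wide gap. Ngp, the neutrophilic granule protein, had 50 reads in CTRL replicate 2, 1 in DPAn-6 replicate 2 and 0 to 6 in the other mice. Ltf, lactotransferrin, had 24, 2 and 0 to 3, and S100a9, a calcium-binding protein of neutrophils, had 29, 0 and 0 to 10. Summed over the 12 neutrophil genes under the filter, CTRL replicate 2 had 147 reads, DPAn-6 replicate 2 had 11 and the others 4 to 28. Not all listed neutrophil genes did so: Lcn2 had 33 and 31 reads in these 2 mice, Il1r2 had 1 and 4, and Cxcr2 had 0 and 2. Lists of other blood cells did not set the 2 mice apart as Slc4a1 did. Platelet markers summed to 17.9 CPM in CTRL replicate 2 and 13.7 in DPAn-6 replicate 2, with 10.9 to 17.6 in the other mice. Lymphocyte markers summed to 53.7 and 50.5 CPM (others 40.7 to 69.6) and blood monocyte markers to 168 and 152 CPM (others 128 to 195).

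CTRL replicate 5, which shared the high level of choroid plexus markers, had 12.8 CPM of summed haemoglobin, 0 reads of Slc4a1 and 19 reads of these neutrophil genes. DPAn-6 replicate 2, with the highest haemoglobin level, had 313 CPM of choroid plexus markers, within the range of the mice with low levels. The part of blood cells or of choroid plexus in the levels was not tested beyond these counts.

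The ratio of variance to mean over the 12 mice, which is 1 for counting error alone and includes here the spread between separate mice, was 43.5 for Hbb-bs, 20.8 for Hba-a1, 16.2 for Slc4a1, 12.5 for Hba-a2, 7.15 for Hbb-bt and 4.87 for Alas2. Without both mice numbered 2 it was 15.9 for Hbb-bs, 4.11 for Hba-a1, 1.44 for Slc4a1, 1.46 for Hba-a2, 3.66 for Hbb-bt and 2.65 for Alas2.

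To ask whether DPAn-6 changed these genes, the groups were compared over all genes with edgeR's quasi-likelihood test. It called 1.55% of the 15688 genes tested at a Benjamini-Hochberg adjusted p below 0.05, which were 243 genes. Of the 6 red cell genes, 5 passed the count filter and 0 were called, with 0 at an unadjusted p below 0.05. DESeq2 also called 0, with 0 at an unadjusted p below 0.05, and limma-voom called 0 with 1. All 5 fitted log2 fold changes (DPAn-6 minus CTRL) were below 0, as were 51.3% of those of all genes, with a median of −0.21, against −0.0047 over all genes tested. The groups overlapped for all 6 genes, and 3.22% of the genes tested did not overlap.

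Alas2 had the most negative fitted value of the 5, with a log2 fold change of −0.69 (standard error 0.45, adjusted p = 0.536, edgeR). For the alpha chains, Hba-a1 had −0.29 (standard error 0.52, adjusted p = 0.858, edgeR) and Hba-a2 −0.21 (standard error 0.48, adjusted p = 0.893, edgeR). The beta chains had −0.18 for Hbb-bs (standard error 0.38, adjusted p = 0.883, edgeR) and −0.11 for Hbb-bt (standard error 0.40, adjusted p = 0.940, edgeR). For the 4 globin genes the standard error exceeded the difference, so these data set only wide limits on any change. Slc4a1 entered only the fit without a filter, with −1.90 (standard error 0.87, adjusted p = 0.447, edgeR), a value that depended on the 28 reads of CTRL replicate 2.

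Two-sided exact permutation tests over all splits of the mice gave p = 0.0707 for Alas2, whose mean log2 CPM was −0.17 ± 0.49 (SD, n = 7) in the CTRL mice, against −1.27 ± 1.43 (SD, n = 5) after DPAn-6. For the other 5 genes the exact permutation p lay between 0.325 for Slc4a1 and 0.543 for Hbb-bt, and the smallest p that the test can give is 0.00126. In each of the 6 genes, 4 of the 5 DPAn-6 mice lay below the CTRL mean.

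The comparison depended on the mice included. Without CTRL replicate 2, the log2 fold changes of Hba-a1 and Hba-a2 were 0.10 and 0.17, while Hbb-bs (−0.076), Hbb-bt (−0.049) and Alas2 (−0.50) stayed below 0. The sign also turned for Hbb-bs without DPAn-6 replicate 3 (0.019), and for Hbb-bt on leaving out that mouse (0.12), DPAn-6 replicate 5 (0.079) or CTRL replicate 7 (0.044). Without DPAn-6 replicate 2 the values were −1.16 for Hba-a1, −0.98 for Hba-a2, −0.89 for Hbb-bs, −0.72 for Hbb-bt and −1.39 for Alas2. All 5 then had an unadjusted p below 0.05, as did 2111 of the 15872 genes tested in that fit, and 0 of the 5 were called. Adjusted p values from edgeR lay between 0.100 for Hbb-bs and 0.342 for Hbb-bt. With both mice left out, after their values were seen, the log2 fold changes were −0.77 for Hba-a1, −0.61 for Hba-a2, −0.79 for Hbb-bs, −0.66 for Hbb-bt and −1.21 for Alas2. In that fit 4 of the 5 had an unadjusted p below 0.05, where 12.1% of all genes tested did, and 0 were called (the lowest adjusted p was 0.152, for Hbb-bs, edgeR). Since these mice were chosen by their levels, the fits without DPAn-6 replicate 2 and without both are no independent evidence of a difference.

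**Figure D3:**
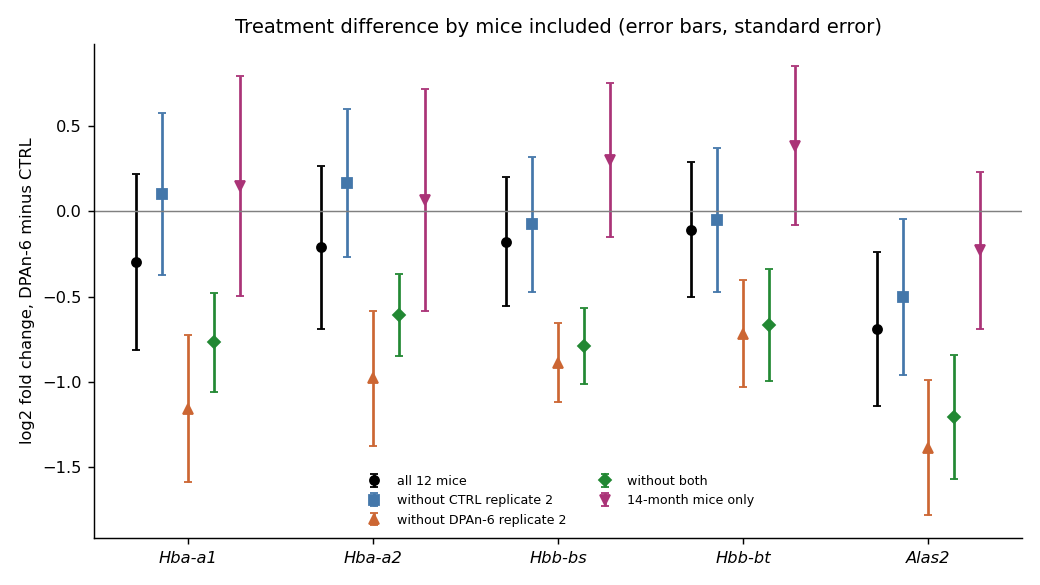
Log2 fold change (vertical axis, DPAn-6 minus CTRL; edgeR, error bars are standard errors) of the 5 genes that passed the count filter, with all 12 mice, without CTRL replicate 2, without DPAn-6 replicate 2, without both, and in 14-month mice only. The globin values lie below 0 by less than their standard errors with all mice. They lie between −1.16 and −0.61 without DPAn-6 replicate 2 or without both. In 14-month mice, which include DPAn-6 replicate 2, they lie above 0.

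The labels give the age of every mouse, though not its sex. In CTRL the summed haemoglobin level was 12.9 and 14.98 CPM in the 2 mice of 12 months and had a median of 11.2 CPM in the 5 mice of 14 months. In DPAn-6 it was 5.13 and 6.97 CPM at 12 months and 6.82, 7.88 and 29.3 CPM at 14 months. At 12 months both DPAn-6 mice thus lay below both CTRL mice, and at 14 months the groups overlapped. Among 14-month mice alone the log2 fold changes of the 4 globin genes were 0.066 to 0.39 and that of Alas2 was −0.23, with 0 called by edgeR and 0 at an unadjusted p below 0.05. The test of whether the treatment difference depended on age gave unadjusted p values from edgeR of 0.0550 for Hbb-bs, 0.0766 for Alas2, 0.0858 for Hbb-bt, 0.190 for Hba-a1 and 0.467 for Hba-a2, with adjusted p of 0.905 or above. Across all genes, 4.26% had an unadjusted p below 0.05 in that test.

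Age itself was compared with treatment in the model. All 5 fitted log2 differences (14 minus 12 months) were above 0, from 0.13 for Hbb-bt to 0.72 for Alas2, with standard errors of 0.41 to 0.56. edgeR called 0 of the 5 and 0 of all 15688 genes (0%), where 279 genes (1.78%) and 0 of the 5 had an unadjusted p below 0.05. DESeq2 and limma-voom also called 0 genes, with 287 and 267 at an unadjusted p below 0.05. Without DPAn-6 replicate 2, 2 of the 5 differences remained above 0.

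The genes varied together across mice to different degrees. All 15 pairs were compared by the log2 CPM of the 12 mice, with permutation p values adjusted over the pairs, and 8 pairs passed 0.05. Among the 4 globin genes all 6 pairs passed, with Pearson's r from 0.74 (Hba-a2 and Hbb-bt) to 0.89 (Hba-a1 and Hbb-bs). Hba-a1 and Hbb-bs, on different chromosomes, had r = 0.89 (permutation p = 5e-05, adjusted p = 0.00075) and Spearman's rho = 0.90 (permutation p = 0.00029, adjusted p = 0.00322). Removing the group means left r = 0.88, and r was 0.81 without the 2 mice whose Hba-a1 level lay farthest from its median, so the relation did not rest on them. Hba-a1 and Hba-a2 had r = 0.87 (permutation p = 0.00088, adjusted p = 0.0026) and rho = 0.66 (permutation p = 0.0233, adjusted p = 0.0350), and r was 0.50 without the farthest mice (permutation p = 0.140), so their relation rested in part on both mice numbered 2. The values of each mouse share a library total, and the near-identical copies share the loss of reads with several places in the genome.

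Alas2 followed Hba-a1 most closely, with r = 0.82 (permutation p = 0.0008, adjusted p = 0.0026), rho = 0.87 (permutation p = 0.00043, adjusted p = 0.00322) and r = 0.78 without both mice numbered 2. Its r was 0.58 to 0.71 with the other 3 globin genes, of which the pair with Hbb-bs passed (permutation p = 0.00863, adjusted p = 0.0162; rho = 0.77, permutation p = 0.00440, adjusted p = 0.0131) with r = 0.65 without the farthest mice. With group means removed this pair no longer passed (r = 0.69, permutation p = 0.0729, adjusted p = 0.137), and 7 of the 15 pairs did. Slc4a1 had r of 0.22 to 0.47 with the other 5 genes, and 0 of these pairs passed (the lowest permutation p was 0.126, with adjusted p = 0.172). Per 100 haemoglobin reads, Alas2 had 0.943 in DPAn-6 replicate 4 and 4.52 to 10.5 in the other 11 mice, including 7.62 in CTRL replicate 2 and 5.16 in DPAn-6 replicate 2.

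**Figure D4:**
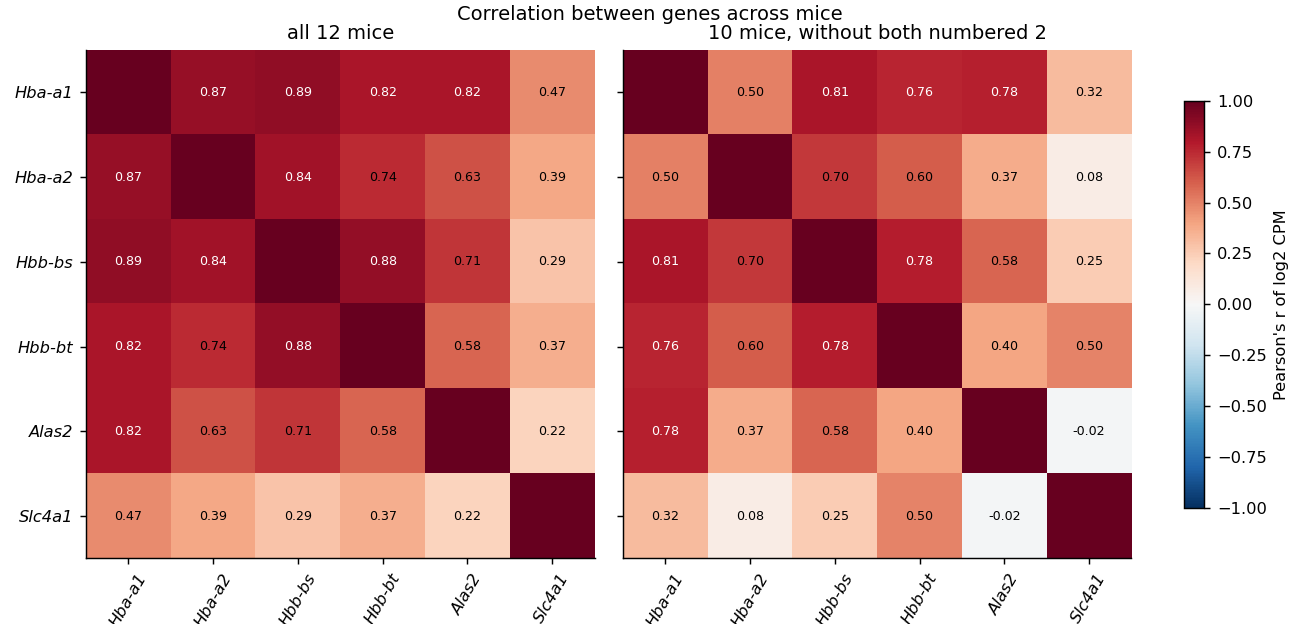
Pearson's r between log2 CPM values of each pair of genes over all 12 mice (left) and over the 10 mice without both numbered 2 (right), on a colour scale from −1 to 1. Globin pairs have r of 0.74 to 0.89 on the left and 0.50 to 0.81 on the right, and on the left the pairs with Slc4a1 are the palest, at 0.22 to 0.47.

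The 10 genes outside these 6 whose levels were most like the mean log2 CPM of the globin genes, after removing group means, had r of 0.83 to 0.93 over the 12 mice, given as a description of the highest values among all genes tested. They were Lgr6, Tead3, Stard9, Hhex, Proser3, Gm37174, Tnfrsf14, Kank1, Uhrf1 and Egln1. With group means kept, their r was 0.71 to 0.91 over the 12 mice. Without both mice numbered 2 it was 0.60 (Gm37174) to 0.88 (Kank1), with 0.76 for Lgr6. Lgr6, a receptor for R-spondins, had r = 0.93 and 5.25 CPM in CTRL replicate 2, 5.77 in DPAn-6 replicate 2 and 3.04 to 4.77 in the other mice. Egln1, a prolyl hydroxylase that marks hypoxia-inducible factor for degradation, had r = 0.83 with 97.0 to 112 CPM. Of these 10 only Stard9, a kinesin, was called for treatment, with a log2 fold change of −0.38 (adjusted p = 0.0412, edgeR). None of the listed erythroid genes was among them. Of the genes outside the 6, 31 had a higher r with the globin mean than Alas2, whose r was 0.73.

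For Alas2 the 10 most similar genes were Sh2b2, B4galt1, Gm5898, Uggt1, P2rx6, Plekhm1, Cmtm3, Mknk1, Golm1 and Disc1, with r of 0.81 to 0.90 after removing group means. None was also in the list for the globin mean. Gm5898 was called for treatment, with a log2 fold change of −2.65 (adjusted p = 0.00112, edgeR) and 2 to 54 reads per mouse.

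Over all genes tested, 14.5% had an unadjusted p below 0.05 in the edgeR comparison of the groups, which is the share to set beside the counts of the lists that follow. Of 41 listed erythroid genes 39 were in the table and 24 passed the filter, and edgeR called 0, with 7 at an unadjusted p below 0.05 and a median log2 fold change of −0.01. DESeq2 called 1 and limma-voom 0. Of these 7, Ermap, a red cell membrane protein, had −1.30 (adjusted p = 0.0611, edgeR), with 42 reads in CTRL replicate 2, 9 in DPAn-6 replicate 2 and 8 to 28 in the others. Aqp1, a water channel of red cells that is also on the choroid plexus list, had −2.37 (adjusted p = 0.177, edgeR). Its reads numbered 149 in CTRL replicate 2, 7 in DPAn-6 replicate 2 and 4 to 113 in the others. The most highly counted, the membrane skeleton genes Add2, Dmtn and Sptb, the carbonic anhydrase Car2 and the BCL11A repressor Bcl11a, are also expressed in brain, and had log2 fold changes of −0.14, 0.16, −0.02, 0.22 and 0.00. The genes made almost only in red cell precursors were at or near 0: Gata1 had 1 read over all mice, and Rhag and Kel had reads in CTRL replicate 2 alone, 2 and 3.

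Of the other globins, the embryonic Hba-x and Hbb-bh1 and 3 more beta-like genes had 0 reads in all mice, and Hbb-y had 7 reads in all. Cygb, cytoglobin, a globin of fibroblasts and some neurons, had 821 to 1774 reads per mouse and a log2 fold change of 0.01 (adjusted p = 0.958, edgeR). Ngb, neuroglobin, had 21 to 71 reads and −0.39 (adjusted p = 0.520, edgeR). edgeR, DESeq2 and limma-voom called 0 of these 2 globins, with 0 at an unadjusted p below 0.05 in each.

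Haem synthesis was measured throughout, with all 13 listed genes tested and 0 called by edgeR, DESeq2 or limma-voom (1 at an unadjusted p below 0.05 in each). Their median log2 fold change was 0.05. Alas1, the form of the enzyme made in all tissues, had 758 to 1607 reads per mouse, against 1 to 27 for Alas2, and a log2 fold change of −0.02. Fech, which inserts iron into the porphyrin ring, had −0.10, and Cpox, which makes protoporphyrinogen, had 0.05.

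Of 14 genes of haem and haemoglobin clearance, 12 were tested and edgeR called 1, which fell, with 2 at an unadjusted p below 0.05 and a median of −0.07. Cd163, the macrophage receptor for the haptoglobin-haemoglobin complex, had 1.67 to 4.17 CPM in CTRL and 0.679 to 1.63 in DPAn-6 mice, and the groups did not overlap. Its log2 fold change was −1.29 (standard error 0.27, adjusted p = 0.0292, edgeR). The call was lost in 14-month mice only (−1.12, adjusted p = 0.409, edgeR), with the replicate block (adjusted p = 0.0987) and in the same mice without the block (0.0568). It was also lost on leaving out CTRL replicate 1 or 5 or DPAn-6 replicate 1, 3, 4 or 5, and the adjusted p ranged from 0.0117 to 0.0973 with each mouse left out. Both mice numbered 2 had nearly equal levels, 1.67 and 1.63 CPM, so that CTRL replicate 2 was the lowest CTRL mouse for Cd163 and had the highest haemoglobin sum of the CTRL group. The other well counted genes of the list were the ferritin chain Fth1 (−0.08), the haem-haemopexin receptor Lrp1 (−0.29), the haem transporter Slc48a1 (0.04) and the haem oxygenase Hmox2 (0.07), and 0 of these was called. Hmox1, the inducible haem oxygenase, had a log2 fold change of −0.12 (adjusted p = 0.793, edgeR) with 106 to 256 reads per mouse.

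Markers of other cells were counted in the same fit, beside which the part of cell makeup in the red cell genes was not tested. Of the blood cell lists, edgeR called 0 of 3 neutrophil, 0 of 3 platelet and 0 of 5 lymphocyte genes tested, with 1, 0 and 1 at an unadjusted p below 0.05. DESeq2 called 1, 0 and 0 and limma-voom 0 in each. Among blood monocyte markers 1 of 3 fell, F13a1, a coagulation factor subunit, with −1.36 (adjusted p = 0.00850, edgeR; 0.240 in 14-month mice only). Endothelial markers had 0 of 15 called (3 at an unadjusted p below 0.05; DESeq2 1, limma-voom 0), and their sum was highest in CTRL replicate 2, at 715 CPM, with 647 in DPAn-6 replicate 2 and 577 to 660 in the others. Mural markers had 1 of 12 called, Myh11 of smooth muscle, which fell with −0.76. Leptomeningeal fibroblast markers fell in 6 of 12 (Col1a2, Lum, Igf2, Slc22a6, Fmod and Islr), where 1.55% of all genes were called, with a median of −0.68. The call count was 0 in 14-month mice only, 2 with the replicate block against 4 in the same mice without it, 1 without both mice numbered 2, and 0 to 6 with each mouse left out, at 0 without DPAn-6 replicate 3. Their sum was 338 CPM in CTRL replicate 2 and 213 in DPAn-6 replicate 2, with 164 to 382 in the other mice. Microglial markers fell in 4 of 12 (Tmem119, Csf1r, C1qb and C1qc), with a median of −0.47. That count was 7 with DESeq2, 0 in 14-month mice only, with the replicate block, in the same mice without the block and without both mice numbered 2, and 0 to 8 with each mouse left out, at 8 without CTRL replicate 3 and at 0 without CTRL replicate 2, 4 or 6 or DPAn-6 replicate 1, 2, 3 or 4. Choroid plexus markers had 0 of 9 called by edgeR, with 8 at an unadjusted p below 0.05 and a median of −2.65, and DESeq2 called 5 and limma-voom 0. Cortical cell markers were abundant, with 13844 to 18334 CPM summed over 12 neuronal markers in each mouse.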

How the data were processed

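The authors prepared poly(A)-selected libraries from the cortex of 1 hemisphere, aligned reads with STAR (version 2.5.3a in the submitters' processing notes) to GRCm38 with Ensembl annotation, and deposited the raw count of each gene without normalization. The strand setting is not given in the sources used here. Counts of 12 mice were read by the labels of each, and 0 columns of sample values were left unused. Symbols and positions came from GENCODE M21 of GRCm38 (50339 of 50563 identifiers matched). CPM is the count scaled to the library's total on genes, and log2 CPM used a pseudocount of 0.5.

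Groups were compared with edgeR 4.0.16 (R 4.3.3) by the quasi-likelihood test, with filterByExpr by group, TMM scaling and no covariate, adjusted by the Benjamini-Hochberg method at 0.05. The study's methods name limma-voom, which was run with limma 3.58.1 as an alternative, beside DESeq2 1.42.0. Fits were tested on simulated data. Single genes were compared by exact permutation tests, and correlations used 100000 resamples (Python 3.11.15, numpy 2.4.6, scipy 1.17.1). Intervals cover counting error only, at a level of 95%, and the floor was 3 counts. Each library came from a separate mouse.

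Named genes were the 6 genes, list members called, at most 5 further members of 4 lists by mean count, and the 10 genes most similar to the globin mean or to Alas2. Others, and leaving out both mice numbered 2, were chosen after values were seen. The members and lists were chosen with earlier results of these data known. Same-numbered mice did not deviate together (r of deviations −0.12 to 0.22 over 5 numbers), so numbers were not treated as pairs.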

Additional observations from a re-analysis of the deposited data

Results flagged for a closer look

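Dixon's test at the 95% level was applied to the 6 genes and the haemoglobin sum in each group, and 4 values passed it among 14 sets of values, where chance gives about 1 in 20. The genes vary together, so these are not independent. DPAn-6 replicate 2 lay far above the other 4 DPAn-6 mice for the summed haemoglobin level (29.3 CPM), for Hbb-bs (4.21 log2 CPM) and for Hba-a2 (1.69 log2 CPM). CTRL replicate 2 lay far above the other 6 CTRL mice for Hba-a2 (1.72 log2 CPM). What sets these mice apart was not tested.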

How the results depend on the processing

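Under the alternatives run, 0 of the red cell genes tested were called by the fits across all genes. The 243 genes called in all became 696 with DESeq2, 9 in 14-month mice only and 105 without both mice numbered 2, and 64 to 953 with each mouse left out. With the replicate number as a block 69 genes were called, against 148 in the same mice without it, and no call of a red cell gene changed. Same-numbered mice were each other's best match for 1 number of 5.

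The sign of the globin differences depended on the mice included. In 14-month mice only, the log2 fold changes were 0.15 for Hba-a1, 0.066 for Hba-a2, 0.30 for Hbb-bs and 0.39 for Hbb-bt, and the differences of mean log2 CPM were 0.060, 0.11 and 0.21 for Hba-a1, Hbb-bs and Hbb-bt. The DPAn-6 mice of that age include replicate 2, with a haemoglobin sum of 29.3 CPM. Replicates 1 and 5 had 7.88 and 6.82 CPM, below the CTRL median of 11.2 CPM at 14 months. With each mouse left out, the log2 fold change ranged from −1.16 to 0.10 for Hba-a1, −0.98 to 0.17 for Hba-a2, −0.89 to 0.019 for Hbb-bs and −0.72 to 0.12 for Hbb-bt, and the age difference (14 minus 12 months) from −0.026 to 0.59 for Hba-a2, −0.047 to 0.56 for Hbb-bs and −0.25 to 0.55 for Hbb-bt. Alas2 kept its sign in the treatment and age fits run.

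The size of the difference also depended on the method. With all 12 mice, the median log2 fold change of the 5 genes tested was −0.45 with limma-voom, against −0.21 with edgeR. The difference of mean log2 CPM was −0.48 for Hba-a1, −0.35 for Hba-a2, −0.40 for Hbb-bs and −0.28 for Hbb-bt. For the difference of mean log2 CPM, leaving out each mouse gave −0.97 to −0.23 for Hba-a1, −0.82 to −0.19 for Hbb-bs, −0.66 to 0.0013 for Hbb-bt and −1.57 to −0.58 for Alas2. The exact permutation p, not adjusted, passed 0.05 without DPAn-6 replicate 2 for Hba-a1 (0.0455), Hbb-bs (0.0333) and Alas2 (0.00303). That mouse was the highest of the DPAn-6 group for each of these genes, so these values are no independent evidence of a difference. Without both mice numbered 2, chosen after their values were seen, it passed for Hba-a2 (−0.54), Hbb-bs (−0.73) and Alas2 (−1.42). The pairs of genes that correlated numbered 4 without both mice. The cause of these shifts was not tested.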

Other observations

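Haemoglobin mRNA is known from midbrain dopaminergic neurons and from oligodendrocytes, and globin and haem genes are linked to the response to low oxygen, so the lists for these were counted beside the red cell genes. The 6 dopaminergic neuron markers summed to 42.2 to 88.5 CPM in the 12 mice. DPAn-6 replicate 2, with the most haemoglobin mRNA, had 51.4 CPM and CTRL replicate 2 had 53.3. Most of this sum was Nr4a2 (42.8 and 45.8 CPM), a transcription factor that many cortical neurons also express. Th, tyrosine hydroxylase, the enzyme that defines these neurons, was highest of all 12 mice in DPAn-6 replicate 2 (2.13 CPM, 38 reads) and lowest in CTRL replicate 2 (0.384 CPM, 6 reads), with 1.01 to 1.73 CPM in the others. Of the 3 that passed the count filter, edgeR, DESeq2 and limma-voom called 0, with 0 at an unadjusted p below 0.05.

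Oligodendrocyte markers, genes of myelin and its cells, summed to 5669 CPM in CTRL replicate 2 and 7217 in DPAn-6 replicate 2, with 5525 to 7361 in the other mice. edgeR called 0 of 12 (6 at an unadjusted p below 0.05, where 14.5% of all genes were), limma-voom 0 and DESeq2 1, with a median log2 fold change of 0.20. Hypoxia-inducible genes summed to 795 CPM in CTRL replicate 2 and 847 in DPAn-6 replicate 2, within the 719 to 912 of the other mice. Of 14 tested, edgeR, DESeq2 and limma-voom called 0 (3 at an unadjusted p below 0.05 in each), with a median of 0.11.

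For the sums of these lists both mice with the highest haemoglobin levels lay within the range of the other mice. Th alone lay outside that range in both, above it in DPAn-6 replicate 2 and below it in CTRL replicate 2.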
